A study of Homo sapiens with 12 samples.

Results

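GPNMB, the transcription factor gene MITF, the cathepsin genes CTSB, CTSD, CTSH, CTSL, CTSS and CTSZ, and the cystatin gene CST6 were followed in HCC827, a human lung adenocarcinoma cell line with an activating EGFR mutation, and in cells derived from it. The members were every probe set annotated to a single symbol among these 9 genes, which gave 14 of the 22277 probe sets on each array. CTSB had 4 of them, CTSS and CTSZ 2 each, and the other genes 1 each. The genes had been chosen by their log2 fold changes in the same comparisons, so their own changes are a description: the fitted errors and calls are given as such, with no test of them offered.

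The series holds 12 arrays in 4 groups of 3. Parental HCC827 cells and ERC4 cells, whose cell type label says resistant to the EGFR inhibitor erlotinib, grew in RPMI with 5% FBS and antibiotics. A separate resistance label calls all 12 samples resistant to EGFR kinase inhibitors, parental cells included, so the groups were taken from the sample titles. HCC827NT cells carry a lentivirus for a non-target shRNA, HCC827 Esh9-1 cells carry one for an shRNA against EGFR, and both also received 5 ug/ml puromycin. All groups derive from the HCC827 line, ERC4 is a single resistant line and Esh9-1 a single shRNA label, so that effects of that line or that shRNA cannot be told apart from resistance or EGFR loss. Nothing in the labels says whether the replicates were separate cultures, so the error below may be technical.

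GPNMB is a transmembrane glycoprotein, a relative of the melanosome protein PMEL, that is prominent in pigment cells, macrophages and osteoclasts. MITF is a basic helix-loop-helix factor that drives pigment cell genes, and it belongs with TFEB, TFE3 and TFEC to the family that activates lysosome genes through E-box motifs. GPNMB is a known MITF target. Cathepsins are proteases that mature in the acid lysosome: CTSD cuts with an aspartic acid pair, and CTSB, CTSH, CTSL, CTSS and CTSZ are cysteine proteases of the papain family. Cystatins such as cystatin E/M, the secreted product of CST6, block cysteine cathepsins.

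The deposited intensities fell into 2 sets by their array medians, as separate normalization of 6 arrays each would give. Array medians on the log2(value + 1) scale were 5.67 to 5.75 in the parental and ERC4 arrays and 7.15 to 7.17 in the NT and Esh9-1 arrays. Each comparison below therefore stays within its set. EGFR, the target of the shRNA, read 13.47, 13.66 and 13.51 in the NT arrays and 12.16, 12.27 and 12.32 in the Esh9-1 arrays, a log2 fold change of -1.30 ± 0.08 (SE). It read 12.41, 12.34 and 12.40 in parental and 12.56, 12.70 and 12.52 in ERC4 arrays (0.21 ± 0.08). Replicate arrays correlated at 0.9922 or above. All 8 epithelial markers lay above the array median in parental, ERC4 and NT cells, and 6 of 8 in Esh9-1 cells. All 8 were called lower in both comparisons, with median log2 fold changes of -2.32 in ERC4 and -2.69 in Esh9-1. For the ACTB controls of the array, the 3' probe set exceeded the 5' one by 0.96 to 1.24 (log2) in Esh9-1 and by 0.17 to 0.23 in NT arrays, and for GAPDH the values were 0.24 to 0.39 and -0.08 to -0.03. In the parental and ERC4 arrays ACTB gave 0.17 to 0.28 throughout, while the hybridisation controls added to the sample averaged 10.92 to 11.21 in parental and 9.41 to 9.55 in ERC4 arrays. The log2 values of an array had an SD of 1.82 to 1.83 in parental and 1.93 to 1.95 in ERC4 arrays. That SD was 2.24 to 2.25 in NT and 2.25 to 2.27 in Esh9-1 arrays. These differences run with every result of the respective comparison and their part in it was not tested. In such bulk RNA, a change in the share of cells that express a gene and a change in RNA per cell cannot be told apart.

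The promoters of GPNMB and CTSD are shown because they were the only ones, among the member windows of the promoter table, that held an E-box of the kinds MITF and its relatives bind. The window ran from 250 bases before to 50 bases after each start in RefSeq (GRCh38.p14), and 6 members had at least 1 window. CACGTG and CATGTG were searched on both strands, as was the longer CLEAR palindrome of lysosome genes, which contains CACGTG and was not in these letters. Only the 250 bases before the start are printed, with the matches in capitals.
GPNMB, chr7:23246525-23246774, plus strand: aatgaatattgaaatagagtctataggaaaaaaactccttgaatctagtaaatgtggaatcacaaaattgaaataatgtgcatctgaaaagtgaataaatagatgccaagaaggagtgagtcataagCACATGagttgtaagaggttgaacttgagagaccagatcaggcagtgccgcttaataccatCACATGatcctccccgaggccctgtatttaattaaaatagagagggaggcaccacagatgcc
CTSD, chr11:1763928-1764177, minus strand: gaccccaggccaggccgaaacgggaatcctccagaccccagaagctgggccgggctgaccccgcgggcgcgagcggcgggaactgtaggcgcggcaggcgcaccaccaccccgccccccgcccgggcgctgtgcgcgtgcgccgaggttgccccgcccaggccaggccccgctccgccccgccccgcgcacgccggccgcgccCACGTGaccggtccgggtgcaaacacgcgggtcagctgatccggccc
GPNMB held CATGTG in reverse (read as CACATG) at -123 and at -62, counted to the first base of the match from the start, and CTSD held CACGTG at -47. Of all 35116 windows in the table, 11.1% held CATGTG, 7.26% CACGTG and 0.353% the CLEAR palindrome. A match is a description of the letters and not a bound site.

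MITF, the factor, moved little beside GPNMB. Its single probe set had log2 levels of 7.64, 7.76 and 7.74 in the 3 parental arrays and 7.76, 7.79 and 7.96 in ERC4. These groups overlapped, and the difference of 0.12 ± 0.08 (SE) was not called and turned to -0.10 after quantile normalization within each set. In NT the levels were 9.77, 9.88 and 9.77, and in Esh9-1 they were 9.32, 9.14 and 9.15. Every Esh9-1 array lay below every NT array, in a comparison where the groups did not overlap on 58.8% of all probe sets, with a log2 fold change of -0.60 ± 0.08, a 1.52-fold lower level.

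GPNMB itself was higher in ERC4 than in parental cells and much lower in Esh9-1 than in NT cells. The log2 levels of its single probe set were 4.48, 4.91 and 4.54 in parental and 6.90, 7.03 and 7.16 in ERC4 arrays. ERC4 arrays were all above parental arrays, at 5.23-fold (2.39 ± 0.10 on the log2 scale). In that comparison 58.2% of all probe sets did not overlap. The parental mean of 4.64 ± 0.23 (SD, n = 3) was 1.10 under its array medians, so that the size of this fold rests on dim signal, whereas the ERC4 mean of 7.03 ± 0.13 was 1.34 above them. In NT cells the levels were 9.79, 9.80 and 9.96, and in Esh9-1 cells 6.01, 6.07 and 6.07. The Esh9-1 arrays were thus all low, 13.9-fold below NT (-3.80 ± 0.10).

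The NT level of GPNMB, 9.85 ± 0.10 (SD, n = 3), was 2.69 above the NT array medians, while Esh9-1, at 6.05 ± 0.04, was 1.12 under its own. Relative to array medians Esh9-1 cells (-1.12) thus stood where parental cells did (-1.10), and NT cells stood 3.79 above parental cells. After quantile normalization over all 12 arrays the means were 5.09 in parental and 7.84 in ERC4 arrays, 8.93 in NT and 5.50 in Esh9-1. Since NT and parental arrays lie in different sets, the group and the set of arrays cannot be told apart in that contrast, and whether NT or Esh9-1 departed from untransduced cells cannot be told.

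**Figure D1:**
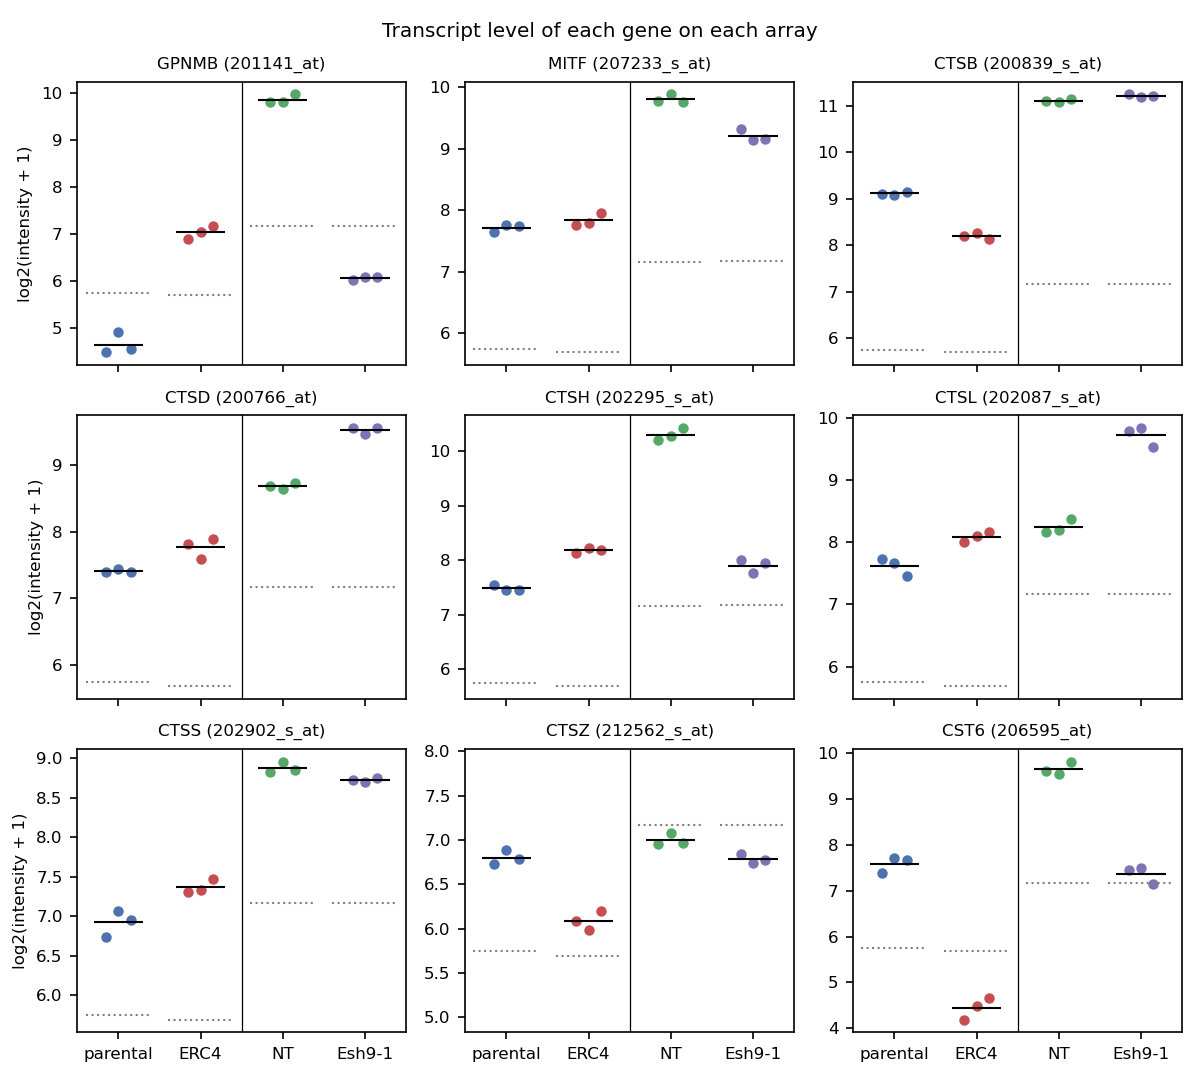
Log2(intensity + 1) of the brightest probe set of each of the 9 genes on each of the 12 arrays (points), with group means (bars) and the mean array median of the group (dotted). The vertical line separates the 2 sets, and levels should be compared only on the same side of it. GPNMB lay under the dotted line in parental and Esh9-1 cells and above it in ERC4 and NT cells.

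CTSH, an aminopeptidase known for processing surfactant proteins in alveolar cells, was the cathepsin among the members that moved in the same directions as GPNMB, as CTSC did outside them. Its log2 levels were 7.54, 7.45 and 7.45 in parental and 8.12, 8.22 and 8.18 in ERC4 arrays, without overlap, a log2 fold change of 0.70 ± 0.08. NT arrays stood at 10.21, 10.28 and 10.42 and Esh9-1 arrays at 7.996, 7.76 and 7.94. Esh9-1 was thus 5.31-fold below NT (-2.41 ± 0.08). With array medians taken off, CTSH stood at 3.14 for NT against 0.73 for Esh9-1, and within the other set at 2.49 for ERC4 against 1.73 for parental cells. NT minus parental was 1.41 on that scale and 0.90 after quantile normalization over all 12 arrays. As for GPNMB, the group and the set of arrays cannot be told apart in that contrast.

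CTSL and CTSD were higher in both derived lines. CTSL, an endopeptidase of broad specificity, read 7.73, 7.67 and 7.45 in parental and 7.997, 8.10 and 8.16 in ERC4 arrays (0.47 ± 0.10). In the other set it read 8.16, 8.19 and 8.38 in NT and 9.79, 9.83 and 9.53 in Esh9-1 arrays, 2.78-fold higher in the latter (1.47 ± 0.10). The groups did not overlap in either set. CTSD, the main aspartic protease of lysosomes, read 7.39, 7.44 and 7.40 in parental and 7.81, 7.59 and 7.89 in ERC4 arrays (0.36 ± 0.08). NT arrays read 8.68, 8.64 and 8.73 and Esh9-1 arrays 9.55, 9.45 and 9.55, a 1.79-fold higher level in Esh9-1 (0.84 ± 0.08). After quantile normalization within each set, the ERC4 differences shrank to 0.24 for CTSL (limma adjusted p = 0.061) and 0.14 for CTSD (adjusted p = 0.15), and neither was called.

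CTSB, an endo- and carboxypeptidase, was lower in ERC4 on all 4 of its probe sets. The brightest, 200839_s_at, read 9.11, 9.09 and 9.14 in parental and 8.19, 8.26 and 8.13 in ERC4 arrays, 1.89-fold lower (-0.92 ± 0.06). The others gave -0.95 (200838_at), -0.49 (213274_s_at) and -0.82 (213275_x_at), and none overlapped between groups. In Esh9-1 against NT the 4 probe sets did not share a direction, at 0.10, -0.27, -0.11 and 0.28 in the same order. The first of these was not called, although its 3 Esh9-1 arrays lay above its 3 NT arrays.

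CTSS in Esh9-1, and CTSZ in both comparisons, could not be given 1 direction, because their probe sets disagreed. CTSS, which trims the invariant chain of class II antigen presentation, was higher in ERC4 on both probe sets, at 0.45 ± 0.08 (202902_s_at) and 0.37 ± 0.08 (202901_x_at). In Esh9-1 against NT the first gave -0.15 ± 0.08 and was not called, and the second gave 0.63 ± 0.08. The second was dim, with group means of 3.37 to 6.13, under the array medians in all 4 groups. CTSZ, a carboxypeptidase, gave -0.71 ± 0.07 (212562_s_at) and 0.66 ± 0.10 (210042_s_at) in ERC4, and -0.22 ± 0.07 and 1.36 ± 0.10 in Esh9-1. On 212562_s_at all ERC4 arrays lay below all parental arrays, and on 210042_s_at all lay above them. The Esh9-1 call on 212562_s_at was lost without NT replicate 2 (-0.18), Esh9-1 replicate 2 (-0.19) or Esh9-1 replicate 3 (-0.21).

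CST6, the cystatin among the members, was lower in both derived lines. It read 7.38, 7.72 and 7.66 in parental and 4.19, 4.48 and 4.66 in ERC4 arrays, 8.82-fold lower (-3.14 ± 0.13). The ERC4 mean was 1.24 under the array medians, so this fold also rests on dim signal. In NT it read 9.62, 9.54 and 9.82 and in Esh9-1 7.45, 7.50 and 7.15, 4.90-fold lower (-2.29 ± 0.13). CTSL, one of the proteases that cystatin E/M blocks, was higher in both comparisons, as given above. Its closest relative, CTSV, was lower in both (-0.73 ± 0.10 in ERC4 and -1.95 ± 0.10 in Esh9-1), and CTSB was lower in ERC4.

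**Figure D2:**
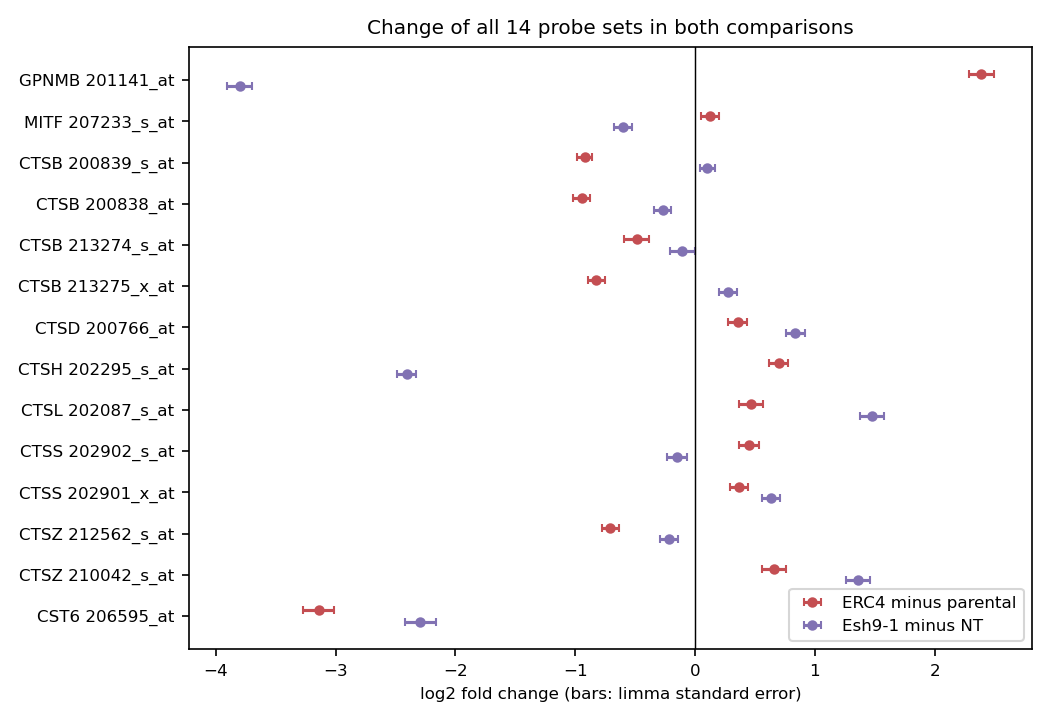
Log2 fold change (points, with limma's standard error as bars) of all 14 member probe sets in ERC4 minus parental and in Esh9-1 minus NT. GPNMB and CTSH lie on opposite sides of 0 in the 2 comparisons, CST6 lies below 0 in both, and the probe sets of CTSZ lie on both sides in each.

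By the brightest probe set of each gene, 5 of the 9 members were called higher and 3 lower in ERC4, where 56.8% of all 11963 genes were called (28.6% higher and 28.2% lower). A call means a limma adjusted p under 0.05 after Benjamini-Hochberg adjustment over the 22215 probe sets that are no array controls. In Esh9-1, 2 were called higher and 5 lower, where 49.2% of all genes were called (24.9% higher and 24.3% lower). After quantile normalization within each set, 3 members were called higher and 3 lower in ERC4. These counts describe the choice of genes. The median log2 fold change of the members was 0.36 in ERC4 and -0.22 in Esh9-1, against -0.04 and -0.02 over all genes.

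The likeness of other genes to GPNMB was measured as Pearson's r over the 12 arrays after the mean of each set was taken off, a description in which arrays of a group share their condition. Among the 8600 genes with a group mean at or above 6.37, the median log2 value of the whole data set, the closest were PEG10 (r = 0.995), COPS7A (r = 0.993), EIF1 (r = 0.993), AURKB (r = 0.993) and PLPBP (r = 0.992). PEG10, an imprinted gene of retrotransposon origin, had log2 fold changes of 2.37 in ERC4 and -3.89 in Esh9-1, near in size to those of GPNMB. The other 4 had smaller changes, from 0.40 to 0.75 in ERC4 and from -1.28 to -0.64 in Esh9-1, and 4 of the 6 probe sets of EIF1 were not called in ERC4. Among the members CTSH was closest to GPNMB (r = 0.956), then MITF (r = 0.897) and CTSS (r = 0.718), and CTSL (r = -0.63) and CTSB (r = -0.62) were least alike. Of the other 11962 genes, 152 had a higher r with GPNMB than CTSH and 489 a higher r than MITF.

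**Figure D3:**
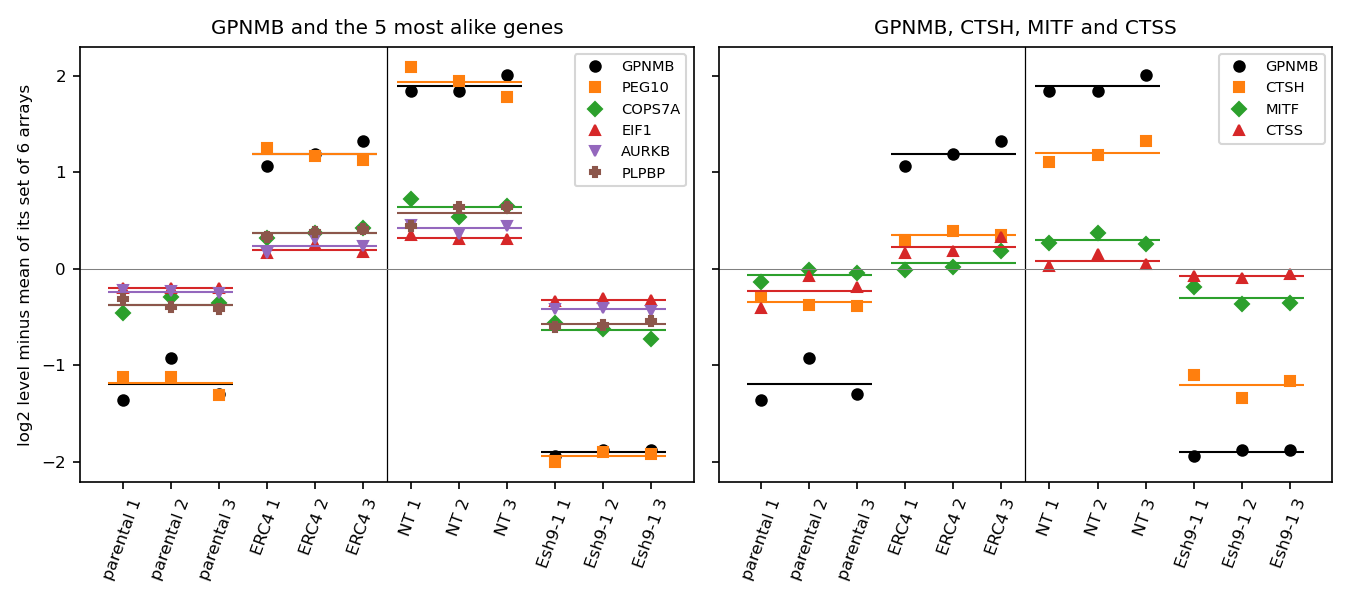
Log2 level minus the mean of the set of 6 arrays, for each array (points) and group (lines). The left panel shows GPNMB with the 5 genes of highest r, and the right panel GPNMB with the members CTSH, MITF and CTSS. Their group means were ordered as those of GPNMB in each set but with a smaller span. MITF arrays overlapped between parental and ERC4. CTSS in Esh9-1 was not called on the probe set shown (-0.15), and its other probe set was higher there (0.63).

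The other genes of the pathway were taken from 9 lists, of which 141 genes were measured. Called genes of these lists numbered 61 higher (43.3%) and 34 lower (24.1%) in ERC4, against 28.6% and 28.2% of all 11963 genes. In Esh9-1 they numbered 36 higher (25.5%) and 46 lower (32.6%), against 24.9% and 24.3% of all genes. After quantile normalization within each set, 57% of the pathway calls in ERC4 were higher, against 64.2% in the main fit. Bright genes were called higher in ERC4 more often than dim ones over the whole array: of the 3988 genes with the brightest mean signal, 52.3% were higher and 16.6% lower. Of the 76 pathway genes among these, 61.8% were higher and 15.8% lower in ERC4, and 22.4% were higher and 48.7% lower in Esh9-1, where the 3988 genes as a whole had 34.3% and 32.5%.

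Among the paralogues of MITF, the brightest probe set of TFE3 was called higher in both comparisons, at 0.52 ± 0.09 in ERC4 and 0.84 ± 0.09 in Esh9-1. Its other probe set gave 0.10 ± 0.09 in ERC4, not called, and 1.07 ± 0.09 in Esh9-1. TFEB, named with TFEC because both are paralogues, was lower in ERC4 (-0.46 ± 0.13) and gave 0.12 in Esh9-1, not called. TFEC lay at 3.50 to 4.15 in all groups, under the array medians. The 14 measured paralogues and regulators include the Rag GTPases and mTORC1 parts that hold these factors in the cytosol. Of the 14, 8 were higher and 1 lower in ERC4 (median 0.27), and 3 were higher and 2 lower in Esh9-1 (median 0.11). The 8 include TFE3 itself, TSC1 and TSC2, while MTOR, LAMTOR2 and FLCN were not called. Among the 14, 8 belong to the 3988 brightest genes, of which 52.3% were called higher in ERC4. RRAGD, a Rag GTPase gene known as a target of the same factors, rose 2.54-fold in ERC4 and fell by 0.75 ± 0.07 on the log2 scale in Esh9-1, and both its probe sets gave these directions.

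The proton pump that acidifies lysosomes had 18 measured subunit genes, of which 12 were higher and 1 lower in ERC4 (median 0.37). ATP6AP2, an accessory subunit, rose 3.76-fold and ATP6V1B2 2.09-fold, though another ATP6AP2 probe set gave 0.10 and was not called. Of these 18 genes, 14 belong to the 3988 brightest, and after quantile normalization within each set 9 were higher and 2 lower. In Esh9-1, 4 were higher and 6 lower (median -0.05), with ATP6V0D1 at -0.76 ± 0.07 and ATP6V0E2 at -0.75 ± 0.08.

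Of 21 genes for lysosomal membrane proteins, 12 were higher and 3 lower in ERC4 (median 0.24; 10 and 5 after quantile normalization within each set), and 6 were higher and 11 lower in Esh9-1 (median -0.21). NPC1, which exports cholesterol from lysosomes, rose 2.68-fold in ERC4, and LAMP2, a major membrane glycoprotein, 2.37-fold. LAMP3, a glycoprotein of lysosomes and lamellar bodies, rose 2.16-fold in ERC4, and in Esh9-1 it fell 4.30-fold. In Esh9-1, LAPTM5 and OSTM1 rose 4.78-fold and 2.87-fold and the cation channel gene MCOLN3 fell 2.18-fold. The MCOLN3 means of 6.45 in NT and 5.33 in Esh9-1 were under the array medians, as were the NT means of LAPTM5 (6.44) and OSTM1 (6.68).

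Lysosomal hydrolases other than cathepsins were called in both directions alike: of 31 measured, 11 were higher and 10 lower in ERC4 (median 0.00), and 10 were higher and 11 lower in Esh9-1 (median -0.15). TPP1, a tripeptidyl peptidase, rose 2.39-fold in ERC4, where 3 of its 4 probe sets were called higher, and the sialidase NEU1 2.07-fold, while the fucosidase FUCA1 fell 2.03-fold. In Esh9-1 the iduronate sulfatase IDS fell 4.54-fold and the ceramidase ASAH1 2.02-fold. All 9 IDS probe sets were called lower there, and 2 of the 4 ASAH1 probe sets were.

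Among 10 other cathepsin genes, counted with the related protease gene LGMN, 4 were higher and 1 lower in ERC4 (median 0.09), and 5 were higher and 2 lower in Esh9-1 (median 0.10). CTSA, a serine carboxypeptidase, and CTSC, which activates granule proteases, were each raised in ERC4, by 0.96 ± 0.06 on the log2 scale. In Esh9-1 CTSC was lower (-0.53 ± 0.06) and CTSA higher (0.16 ± 0.06). CTSV, the closest relative of CTSL, fell 3.87-fold in Esh9-1, where CTSL was higher, and CTSF rose 2.13-fold. In ERC4 CTSV was lower too (-0.73 ± 0.10). Of 8 other cystatins, 1 was higher and 3 lower in ERC4 (median -0.15), and 3 were higher and 1 lower in Esh9-1 (median 0.06). CSTB, the cytosolic cystatin B, was lower in ERC4 (-0.65 ± 0.07), and CST1 was lower by a smaller amount (-0.38 ± 0.11, limma adjusted p = 0.011). The CST1 means of 4.15 in parental and 3.76 in ERC4 were under the array medians. CST7, an inhibitor held in endosomes of immune cells, rose 8.52-fold in Esh9-1.

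Hydrolase sorting genes, which tag enzymes with mannose 6-phosphate and carry them to lysosomes, were split in ERC4, with 7 of 16 higher and 6 lower (median 0.05; 4 and 7 after quantile normalization within each set). In Esh9-1, 1 was higher and 9 lower (median -0.22). The adaptor subunit AP1M2, which is restricted to epithelia, fell 4.60-fold in ERC4 and 6.50-fold in Esh9-1, as the epithelial markers were lower in both. AP1S2 rose 2.62-fold and 3.05-fold, though its other probe set gave 0.02 in ERC4 and was not called.

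The paralogue, binding partners and sheddases of GPNMB numbered 7. ADAM10, which can shed the GPNMB ectodomain, rose 2.38-fold in ERC4, where 3 of the 7 were higher and 3 lower (median 0.12). In Esh9-1, 4 were higher and 1 lower (median 0.73): the hyaluronan receptor gene CD44 rose 3.94-fold, with 7 of its 8 probe sets called higher, and the integrin gene ITGA5 3.38-fold. PMEL, the paralogue, was dim at 5.24 to 6.05 in all groups, under the array medians. Other pigment cell genes and MITF targets were mostly dim as well, 11 of 17 among the 3988 dimmest genes, with 3 higher and 7 lower in ERC4 (median -0.15) and 0 higher and 3 lower in Esh9-1 (median -0.10; limma, also 0 higher at an unadjusted p under 0.05). Of those 3988 dimmest genes, 5.69% were called higher and 35% lower in ERC4, and 12.3% and 15.3% in Esh9-1. BCL2A1, an apoptosis inhibitor gene, fell 2.61-fold in ERC4, within dim signal: its means of 5.14 in parental and 3.76 in ERC4 were under the array medians. RAB38, a GTPase gene of melanosome and lamellar body transport, fell 2.91-fold in Esh9-1. The adjusted p-values of the genes in these 9 lists named as risen or fallen with a fold were 2e-05 or lower (limma).

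**Figure D4:**
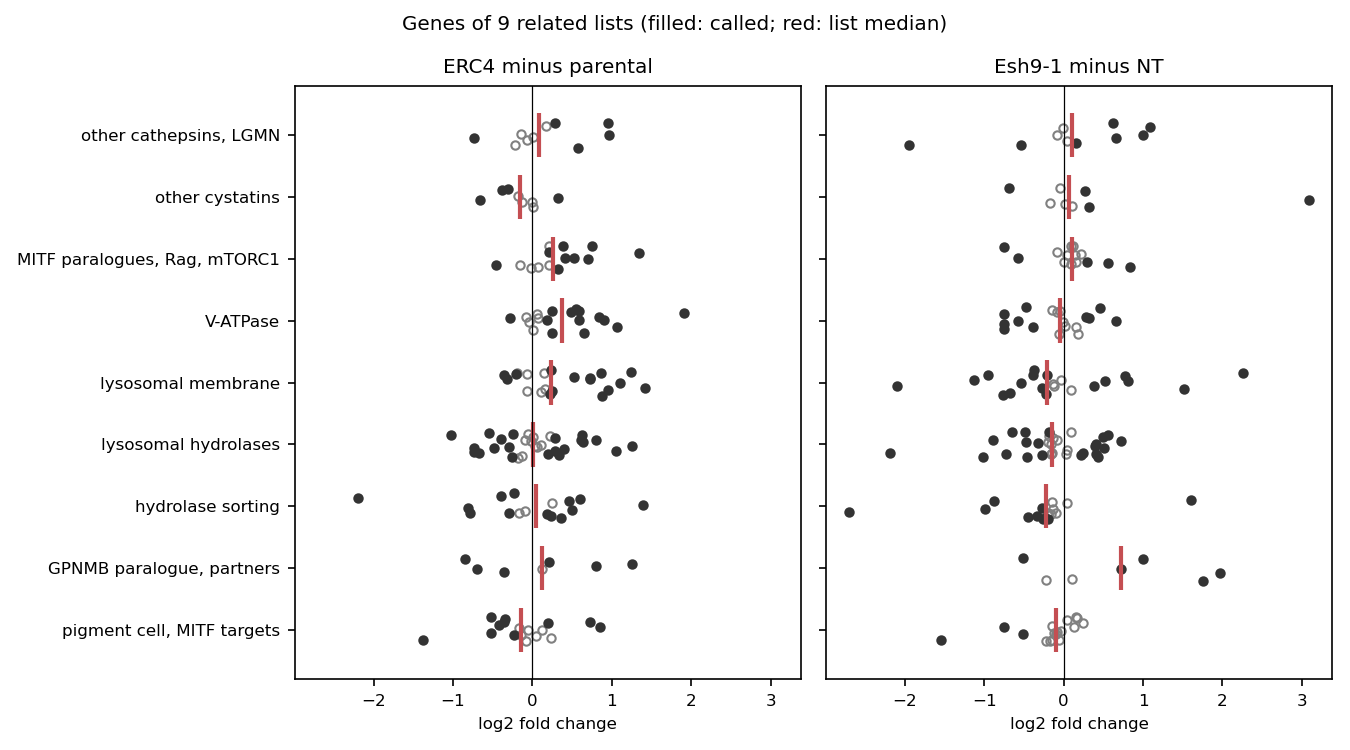
Log2 fold change of each measured gene (points) in 9 lists of related genes, for ERC4 minus parental (left) and Esh9-1 minus NT (right). Filled points were called, open points were not, and red bars are list medians, which were highest for the V-ATPase in ERC4 (0.37) and for the GPNMB partners in Esh9-1 (0.73).

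The pattern of GPNMB and CTSH, higher in ERC4 and lower in Esh9-1, was called in 24 of the 141 pathway genes (17.0%), against 6.23% of all 11963 genes. Among the 3988 brightest genes it was called in 13.2%, and in 21 of the 76 pathway genes among these (27.6%). The comparisons share no arrays but were fitted in 1 model with a common residual variance. The lists were chosen with earlier results of these data known, so these shares are a description. They were not worked out under other scalings. In the lysosomal membrane list it was found in 6 of 21 genes and in the V-ATPase list in 4 of 18. Ranked by the smaller of the 2 changes, LAMP3 (1.11 and -2.10), NPC2 (0.95 and -0.95), NEU1 (1.05 and -0.88) and RAB38 (0.86 and -1.54) came first. NPC2, which hands cholesterol to NPC1, was named after its values were seen. The reverse pattern was called in 5 pathway genes (3.55%), against 3.15% of all genes. Genes called higher in both comparisons numbered 21 (14.9%, against 13.2% of all genes), with LAMP2 and ATP6AP2 among them by their brightest probe sets. Those lower in both numbered 11 (7.8%, against 8.62%).

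GPNMB and several cathepsins are abundant in macrophages, and MITF in melanocytes, so markers of both were examined. The mean log2 level of the 12 measured macrophage markers of 14 was 4.76 to 4.93 in parental and 4.55 to 4.60 in ERC4 arrays, 5.44 to 5.49 in NT and 5.43 to 5.51 in Esh9-1 arrays, all below the array medians. By limma 0 were called higher in ERC4 (0 at an unadjusted p under 0.05) and 5 lower, and in Esh9-1 1 was higher and 2 lower. Of the 3988 dimmest genes as a whole, 5.69% were called higher and 35% lower in ERC4. In Esh9-1 12.3% of them were higher and 15.3% lower. PTPRC, the pan-leukocyte marker, lay between 4.49 and 4.85 in the 4 groups. Of 5 measured melanocyte markers 1, SOX10, was above the array medians, in every group. By limma 0 were called higher in either comparison (0 at an unadjusted p under 0.05), and in ERC4 3 were lower.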

How the data were processed

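Transcripts were measured on 12 arrays, 3 per group. The deposited values are intensities on a linear scale, 22277 probe sets per array, made by the authors with RMA per the submitters' processing notes. Which RMA version and which arrays went into 1 normalization was not given in the sources used here. They were taken to log2(value + 1), which understates fold changes at low signal. There were 62 array controls. The platform annotation gave 19070 probe sets 1 symbol, 1043 several and 2164 none, and only the first kind was named. Each of the 11963 genes was represented by its brightest probe set by mean over all arrays. The log2 levels of a probe set were compared between groups with limma 3.58.1 under R 4.3.3, two-sided, in 1 linear model of all 12 arrays with moderated variances and 8 residual degrees of freedom, with Benjamini-Hochberg adjustment over the 22215 tested probe sets and a threshold of 0.05. Errors of fold changes are limma's standard errors. The number of arrays limits the precision, and an exact test of 3 arrays against 3 cannot go below p = 0.1.

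The members and the gene lists were chosen with earlier results of these data known. In each list and comparison, up to 4 called genes of at least 2-fold with the largest change were named, or up to 2 called genes where none reached 2-fold; TFEB, TFEC, PMEL, PTPRC and SOX10 were named in addition, for what they are. Replicate numbers, which the labels share between groups, were checked by correlating deviations from group means of same-numbered arrays: r was 0.01 to 0.07 in the first comparison and -0.14 to -0.03 in the second, so the numbers were not taken to pair the arrays. On simulated data of 22215 probe sets, 95% of those changed by 1 on the log2 scale were recovered for ERC4 minus parental and 100% for Esh9-1 minus NT, with 7.61% and 6.70% false among calls. Of those changed by 0.5, 67.5% and 76.2% were recovered. Only 80 probe sets were changed by 0.5, 80 by 1 and 40 by 2, with independent noise and no shift in scale. Far more were called in the real data, so the simulation does not give the error rate there. Other settings tried were a replicate block, fits of 6 arrays, a trended and robust eBayes, 3 scalings, no pseudocount, no dim or no _x_at probe sets, 1 value per gene (brightest or mean), an adjusted p of 0.01, and omission of single arrays. Promoter windows came from RefSeq (GRCh38.p14). Figures were drawn with matplotlib 3.10.9.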

Additional observations from a re-analysis of the deposited data

How the results depend on the processing

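The counts of called members, pathway genes and probe sets stayed within 1.5 times their main values under every alternative listed in the processing section. GPNMB kept its directions and calls under all of them, at 2.30 to 2.75 in ERC4 and -3.83 to -3.43 in Esh9-1, as did CTSH (0.47 to 0.76 and -2.46 to -2.32) and CST6 (-3.60 to -3.01 and -2.36 to -2.13). With the replicate block, 8 members were called in ERC4 minus parental and 7 in Esh9-1 minus NT, the main counts. Leaving out 1 array gave 8 called members throughout in ERC4 and 6 to 7 in Esh9-1, 82 to 94 and 74 to 84 called pathway genes, and 10371 to 11994 and 9434 to 10890 called probe sets. MITF in ERC4, not called, turned to -0.10 after quantile normalization over all 12 arrays or within each set. Averaging a gene's probe sets turned CTSS (0.24) and CTSZ (0.57) in Esh9-1, as their probe sets disagree, and took CTSZ in ERC4 to -0.03. Quantile normalization over all 12 arrays ended the ERC4 calls of CTSD (0.15) and CTSL (0.24) and the Esh9-1 call of CTSZ (-0.18), and eBayes with trend and robust settings ended the last too (adjusted p = 0.058 in limma, range 8.2e-06 to 0.11 over its alternatives). Among single lists, called cystatins in ERC4 went from 4 to 2 without dim probe sets, at an adjusted p of 0.01 or without parental replicate 3, and called pigment cell genes in ERC4 from 10 to 5 without dim probe sets; the cause was not tested. That filter kept 13 of the 14 members' probe sets. Depth has no counterpart here. GPNMB in parental and Esh9-1 cells, CST6 in ERC4 cells and the second CTSS probe set lay under the array medians. So did CTSZ on 212562_s_at in NT and Esh9-1, CTSZ on 210042_s_at in parental, ERC4 and NT, and CTSB on 213274_s_at in ERC4. At low signal log2(value + 1) understates a fold most.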
